A study of Mus musculus with 8 samples.

Results

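The genes described here are 39 of the 36255 gene rows of a mouse RNA-seq count table, taken by symbol as 20 cytosolic aminoacyl-tRNA synthetases, 6 enzymes of amino acid and one-carbon synthesis, 3 parts of amino acid transporters and 10 factors and effectors of the integrated stress response. All 39 were found, Mars under its symbol Mars1, and all 39 passed the filter on low counts that left 16542 genes for testing. Polyadenylated RNA was sequenced in 4 groups of 2 libraries: Skp1a KO cells as embryoid bodies labelled EBd2 (lots 1 and 2), fl/fl cells as EBd2 (lots 1 and 12), Skp1a KO cells as ES cells (lots 1 and 12) and fl/fl cells as ES cells (lots 1 and 2). The fl/fl notation usually stands for a pair of loxP-flanked alleles, and the series describes its reference cells as Skp1 WT. The sources used here name no cell line, number of clones, method of deletion or further allele, and do not say whether lots were separate cultures, so that p-values cover only the spread between these libraries. Stage and genotype follow the sample titles, since the tissue field gives embryonic stem cell for every KO library and embryoid body for every fl/fl library.

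ATF4 is a transcription factor whose mRNA is translated more when kinases such as GCN2 or PERK phosphorylate the initiation factor eIF2, as happens on amino acid shortage or endoplasmic reticulum stress. It binds composite C/EBP-ATF elements near genes for amino acid uptake and synthesis, for charging of tRNAs and for further stress factors such as CHOP (Ddit3), ATF3, TRIB3 and CHAC1. SKP1 is the adaptor that joins F-box proteins to the SCF ubiquitin ligases, and ATF4 protein is known as a substrate of SCF with the F-box protein βTrCP.

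The 11 stretches of promoter below are shown because they hold the letters through which ATF4 is known to act. Each of these runs has a match to TGATGNAA or, on the other strand, its complement TTNCATCA, printed in capitals and read 5′ to 3′ on the gene's own strand. The sequences are RefSeq's for build GRCm38.p6.
Atf3, chr1:191183425-191183454, - strand: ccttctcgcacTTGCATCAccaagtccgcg
Nupr1, chr7:126625562-126625591, - strand: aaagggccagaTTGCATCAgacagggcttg
Chac1, chr2:119351038-119351067, + strand: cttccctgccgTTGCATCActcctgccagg
Trib3, chr2:152344028-152344057, - strand: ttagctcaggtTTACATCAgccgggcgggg
Asns, chr6:7693214-7693243, - strand: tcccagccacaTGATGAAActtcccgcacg
Slc7a11, chr3:50443661-50443690, - strand: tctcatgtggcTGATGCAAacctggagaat
Slc7a11, chr3:50443642-50443671, - strand: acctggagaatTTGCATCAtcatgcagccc
Gars, chr6:55037960-55037989, + strand: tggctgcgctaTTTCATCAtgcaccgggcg
Iars, chr13:49682126-49682155, + strand: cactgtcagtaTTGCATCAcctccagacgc
Tars, chr15:11399655-11399684, - strand: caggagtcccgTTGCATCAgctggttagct
Yars, chr4:129189895-129189924, + strand: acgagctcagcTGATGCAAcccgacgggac
The search covered 250 bases before and 50 bases after each start site, on both strands. Of the 31 members with such a window in the table, 11 held a match, which is 35.5%, against 1219 of all 27025 genes with a window, which is 4.51%. By windows, 11 of 33 of the members' held a match (33.3%), against 1304 of all 32851 (3.97%). The members were picked partly as reported ATF4 targets, so these shares are not independent of that choice. The difference was not tested. Distances are counted to the first letter of a match. In Iars, Tars, Yars, Trib3 and Asns it lay within 23 bases of the start site, in Atf3 and Nupr1 110 bases before it, and in Chac1 193 bases before it. Slc7a11 had 2 matches. Aars also had 2, 112 bases before and 9 bases after the start site, and its stretches are not among those shown. No window was in the table for Cars, Hars, Lars, Nars, Rars, Vars, Wars and Slc7a5. Windows follow RefSeq start sites. Those of Atf3 and Nupr1 lie inside the longer GENCODE gene models, whose 5′ ends are at chr1:191218039 and chr7:126630861. The bases before those ends were not searched. The 250 bases before the RefSeq start sites of Atf3 and Atf4 are shown whole because these genes had the largest increase and the largest decrease among the members in KO EBd2. Capitals mark the match in Atf3, and these letters are not in the window of Atf4.
Atf3 upstream, chr1:191183334-191183583, - strand: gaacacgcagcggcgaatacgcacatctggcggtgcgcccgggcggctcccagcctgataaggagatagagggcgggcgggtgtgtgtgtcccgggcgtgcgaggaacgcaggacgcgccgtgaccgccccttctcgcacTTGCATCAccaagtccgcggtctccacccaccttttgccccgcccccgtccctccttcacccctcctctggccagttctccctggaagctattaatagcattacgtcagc
Atf4 upstream, chr15:80254934-80255183, + strand: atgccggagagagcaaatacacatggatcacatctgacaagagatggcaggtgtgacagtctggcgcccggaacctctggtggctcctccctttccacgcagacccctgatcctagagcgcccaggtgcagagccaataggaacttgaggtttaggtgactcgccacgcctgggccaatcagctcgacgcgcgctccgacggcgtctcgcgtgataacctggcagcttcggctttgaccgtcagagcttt

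Gene models are those of GENCODE vM21 on GRCm38. Per kilobase of the longest protein-coding transcript, the synthetases ran from 23.9 (Yars) to 145 (Kars) CPM per kilobase in KO EBd2, with a median of 50.7. In fl/fl EBd2 they ran from 39.1 (Cars) to 186 (Gars), with a median of 73.8. In ES cells their medians were 75.2 CPM per kilobase in KO and 83.5 in fl/fl. CPM, a gene's counts relative to the total of its library, are given after TMM scaling, a correction of library size that centres most genes on no change. On the same scale per length, Slc7a11 was the lowest member in all 4 groups, at 0.921, 0.63, 0.21 and 0.118 CPM per kilobase in KO EBd2, fl/fl EBd2, KO ES and fl/fl ES cells. Asns, which makes asparagine, was the highest member in ES cells, at 215 in KO and 236 in fl/fl, and in KO EBd2, at 150. The members together took 0.602 and 0.604% of all counts in KO EBd2, 0.652 and 0.659% in fl/fl EBd2, 0.732 and 0.738% in KO ES cells and 0.751 and 0.753% in fl/fl ES cells. The share was lower in KO than in fl/fl at both stages, without overlap, and lower in EBd2 than in ES cells.

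Libraries held 7858452 to 10055667 counts in EBd2 and 21545868 to 23343471 in ES cells. Mitochondrial genes took 3.15 and 3.24% of them in KO EBd2, against 2.7 and 2.28% in fl/fl EBd2. In KO ES cells they took 2.43 and 2.42%, against 1.76 and 1.73% in fl/fl ES cells. Their share was higher in KO at both stages, without overlap, and its part in the members' differences was not tested. Skp1a itself had 286 and 290 CPM in KO EBd2, against 401 and 389 in fl/fl EBd2, and 369 and 361 CPM in KO ES cells, against 420 and 430 in fl/fl ES cells. Skp1a was lower in KO at both stages, with reads in every KO library; which part of the gene was deleted is not given, so its count does not check the genotype. Summed primitive streak markers were at 154 to 158 CPM in KO EBd2, against 17.4 to 18.9 in fl/fl EBd2, and endoderm markers at 472 to 483, against 181 to 184. Formative epiblast markers summed to 306 to 321 CPM in KO EBd2, against 1670 to 1790 in fl/fl EBd2, and those of fibroblast feeders to 192 to 208, against 53.8 to 57.3. In ES cells, pluripotency markers summed to 2620 to 2680 CPM in KO and 2990 to 3020 in fl/fl, and feeder markers to 723 to 783 in KO and 613 to 648 in fl/fl.

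The first comparison asked how the members differed between KO and fl/fl embryoid bodies. In KO EBd2, 19 of 20 synthetases fell, with Vars, which charges valine tRNA, at 0.549 times its fl/fl level. Atf4 itself fell to 0.404 times the fl/fl level. Atf3 rose 8.38-fold, Atf5 rose 2.8-fold and Asns rose 1.33-fold. By edgeR's quasi-likelihood test with Benjamini-Hochberg adjustment over all genes tested, at an adjusted p under 0.05, 26 of the 39 members were called lower, where 31.5% of all genes were, and 4 were called higher, where 30.7% of all genes were. The median log2 fold change was -0.29 over the members and 0.00 over all genes. Scaling by library sizes alone moved the median of all genes in this comparison by 0.23 on the log2 scale, and then 15 members were called lower, where 20.2% of all genes were, and 10 higher, where 42.8% were. In these bulk libraries, fewer cells of a type and less RNA per cell cannot be told apart. Of the tested markers, 4 of 4 for formative epiblast were lower in KO EBd2, and 4 of 5 for primitive streak, 7 of 8 for endoderm and 7 of 9 for feeders were higher. No marker was at 0 across an EBd2 group, and their part in the members' differences was not tested.

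**Figure D1:**
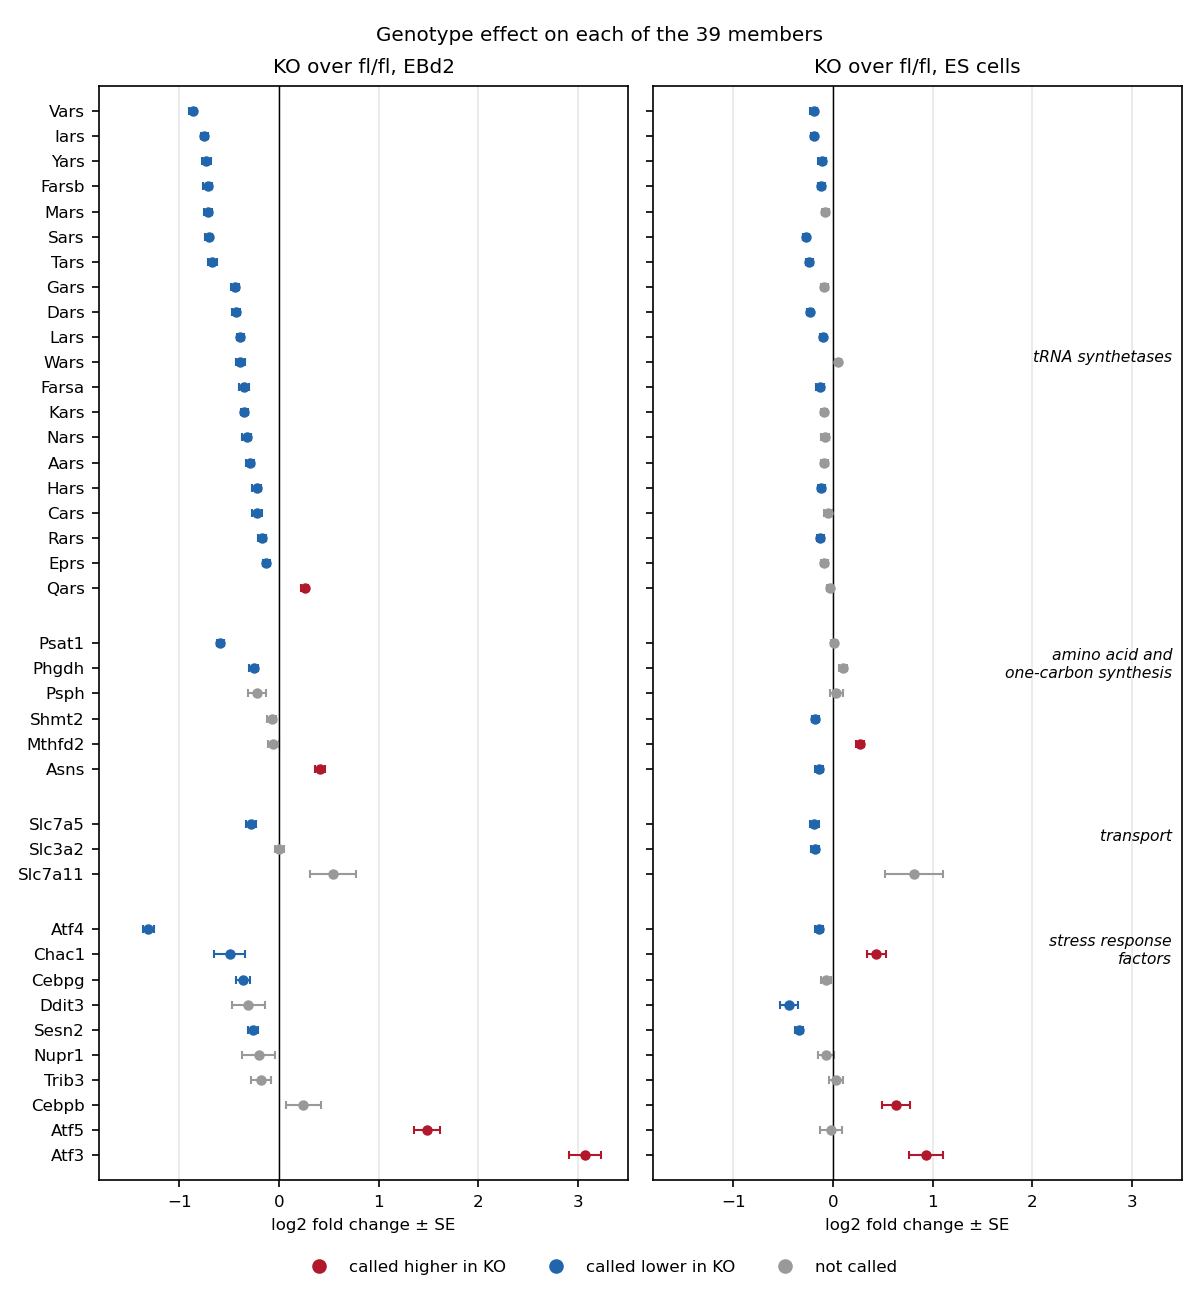
Log2 fold change of each of the 39 members, KO over fl/fl, with its standard error, in EBd2 (left) and ES cells (right), from the edgeR fit of all 8 libraries and grouped by class. In EBd2 the values ran from -1.31 for Atf4 to 3.07 for Atf3, and in ES cells from -0.44 for Ddit3 to 0.94 for Atf3; red and blue points passed an adjusted p under 0.05.

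Among the stress factors, Atf4 (chr15:80255184-80257541, + strand, 1 exon block) had 92.1 and 85.0 CPM in KO EBd2, against 225.5 and 213 CPM in fl/fl EBd2. Both KO libraries lay below both fl/fl libraries. The log2 fold change was -1.31 ± 0.05 (SE, 2 libraries a group; edgeR adjusted p = 2.74e-09). Atf3 (chr1:191170296-191218039, - strand), a repressor and activator that ATF4 is known to induce, had 28.6 and 27.8 CPM in KO EBd2, against 3.24 and 3.46 CPM in fl/fl EBd2. Its libraries were far apart between genotypes and close within them, on 292 and 311 counts in KO EBd2 and 24 and 30 in fl/fl EBd2. The log2 fold change was 3.07 ± 0.16, with an edgeR adjusted p of 2.23e-08.

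Atf5 (chr7:44812256-44816658, - strand), a relative of ATF4 under similar translational control, had 27.0 and 30.5 CPM in KO EBd2, against 8.64 and 11.8 in fl/fl EBd2. The groups did not overlap, although the fl/fl lots differed, and the log2 fold change was 1.48 ± 0.13 (edgeR adjusted p = 1.28e-06). Of its 1993 exon bases, 82 are shared with Nup62 and 82 with Il4i1 on the other strand, which may be the same bases. The sources used here do not say whether counting used strand. Atf4, Atf3 and Atf5 were the members past a fold of 2 in KO EBd2.

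Ddit3 encodes CHOP, a factor of stress-induced death. It had 6.66 and 6.89 CPM in KO EBd2, against 7.69 and 9 in fl/fl EBd2, without overlap, and did not pass the test (-0.31 ± 0.17, edgeR adjusted p = 0.131). Trib3, a pseudokinase that restrains ATF4 and CHOP, had 19.5 and 17.2 CPM in KO EBd2, against 19.6 and 21.7 in fl/fl EBd2, and did not pass it either (-0.18 ± 0.10, edgeR adjusted p = 0.137). In both genes the highest KO library and the lowest fl/fl library were less than 1 CPM apart.

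Chac1, an enzyme that degrades glutathione, had 6.76 and 5.90 CPM in KO EBd2, against 8.37 and 9.35 in fl/fl EBd2. Its libraries did not overlap, and the difference was called (-0.49 ± 0.16, edgeR adjusted p = 0.0165), though not with library sizes alone. The call rested on single libraries: the adjusted p was 0.101 without KO EBd2 lot 2 and 0.127 without fl/fl EBd2 lot 12. Sesn2, a leucine sensor upstream of mTORC1, had 139 and 137.5 CPM in KO EBd2, against 165 and 166 CPM in fl/fl EBd2, a fall of 0.26 ± 0.05 on the log2 scale (edgeR adjusted p = 0.000486). It differed by -0.03 with library sizes alone, at an adjusted p of 0.561. Cebpg, a partner of ATF4 in binding composite elements, fell by 0.36 ± 0.07 (-0.13 with library sizes alone, adjusted p = 0.14), while Cebpb (0.25 ± 0.17) and the small chromatin protein Nupr1 (-0.20 ± 0.17) did not pass the test.

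**Figure D2:**
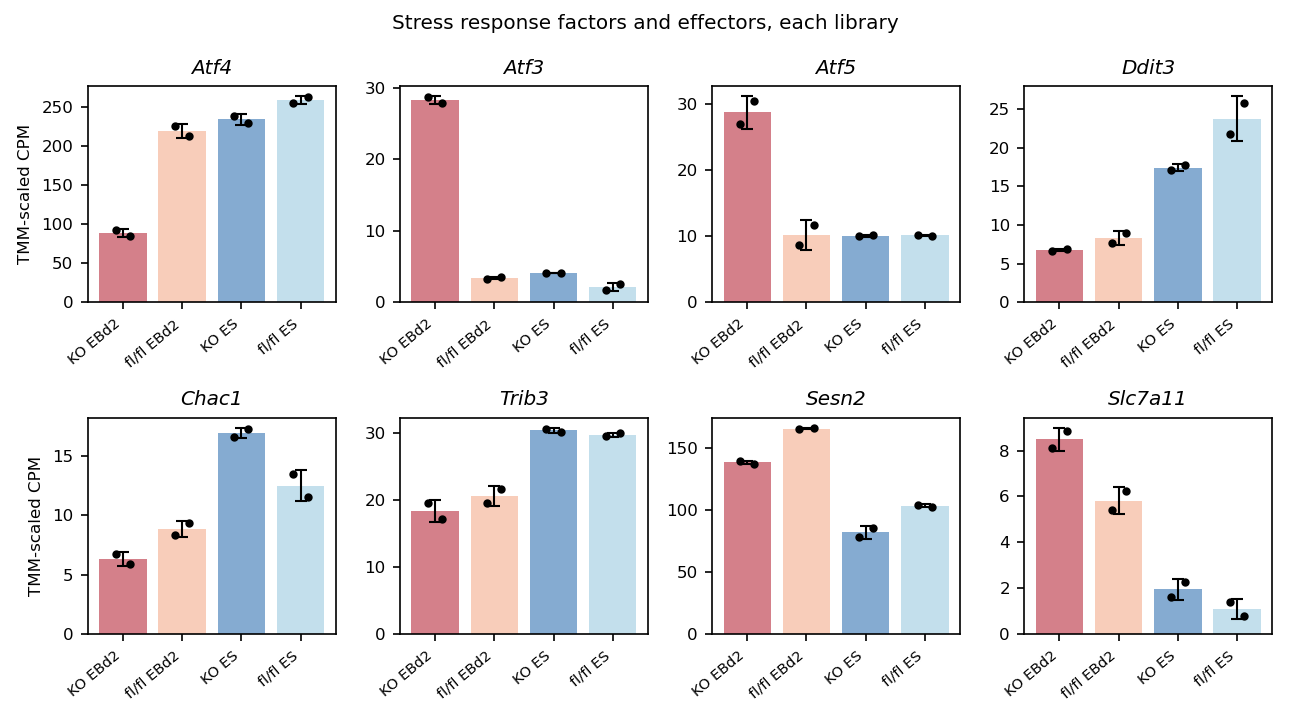
TMM-scaled CPM of 8 members in KO EBd2, fl/fl EBd2, KO ES and fl/fl ES cells; bars are means, error bars SDs and points the 2 libraries of a group. Atf3 and Atf5 stand out in KO EBd2 at means of 28.2 and 28.8 CPM, where Atf4 is lowest, at a mean of 88.5 CPM.

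All 20 synthetases were called in EBd2, where 62.2% of all genes were. Vars (chr17:35000987-35016322, + strand) had 208 and 213 CPM in KO EBd2, against 378.5 and 388 in fl/fl EBd2. The log2 fold change was -0.87 ± 0.04 (edgeR adjusted p = 6.79e-09). Iars, for isoleucine, had 225 and 222 CPM in KO EBd2, against 374 and 376 in fl/fl EBd2, with a log2 fold change of -0.75 ± 0.04 (edgeR adjusted p = 1.75e-08). In both genes the gap between genotypes was many times that between lots. Yars, Farsb, Mars, Sars and Tars, for tyrosine, phenylalanine (β subunit), methionine, serine and threonine, fell by 0.73, 0.71, 0.71, 0.70 and 0.67 on the log2 scale.

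The remaining synthetases that fell lay between -0.44 (Gars, glycine) and -0.13 (Eprs, the fused glutamate and proline enzyme). Among them, Aars shares 1326 of its 9282 exon bases with Exosc6 on the same strand, and the part of Exosc6 in its count was not tested. Eprs was not called without fl/fl EBd2 lot 12, at -0.10 and an adjusted p of 0.0929. Qars, for glutamine, was the one synthetase that rose: it had 224 and 229 CPM in KO EBd2, against 186 and 193 in fl/fl EBd2, a log2 fold change of 0.26 ± 0.04 (edgeR adjusted p = 8.15e-05). It lay above fl/fl in both KO libraries, and its rise kept its sign and its call in all 17 alternative settings. Under library sizes alone 13 synthetases were called lower and 2 higher (Qars and Eprs), where 20.2% and 42.8% of all genes were. The 13 were the same genes that remained called lower in all 17 alternatives. Class I enzymes (8 of 9 lower, 1 higher) and class II enzymes (10 of 10 lower) had medians of -0.39 and -0.39. By TMM, 31.5% of all genes were called lower and 30.7% higher.

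Of the 8 synthetases that sit in the multisynthetase complex, 7 were lower and Qars was higher, with a median of -0.37. Of its 3 scaffold proteins, Eef1e1 (-0.28 ± 0.06) and Aimp1 (-0.15 ± 0.05) were lower and Aimp2 was not called; with library sizes alone no scaffold protein was called. The 17 synthetases of mitochondria, encoded by separate genes, had 7 lower and 3 higher, with a median of -0.18. With library sizes alone they had 5 lower and 7 higher. Of all genes, 31.5% were lower and 30.7% higher, or 20.2% and 42.8% with library sizes alone. The 3 with the smallest p were Iars2 (-0.48 ± 0.04), Yars2 (-0.57 ± 0.07) and Nars2 (-0.67 ± 0.10), all lower in KO EBd2.

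**Figure D3:**
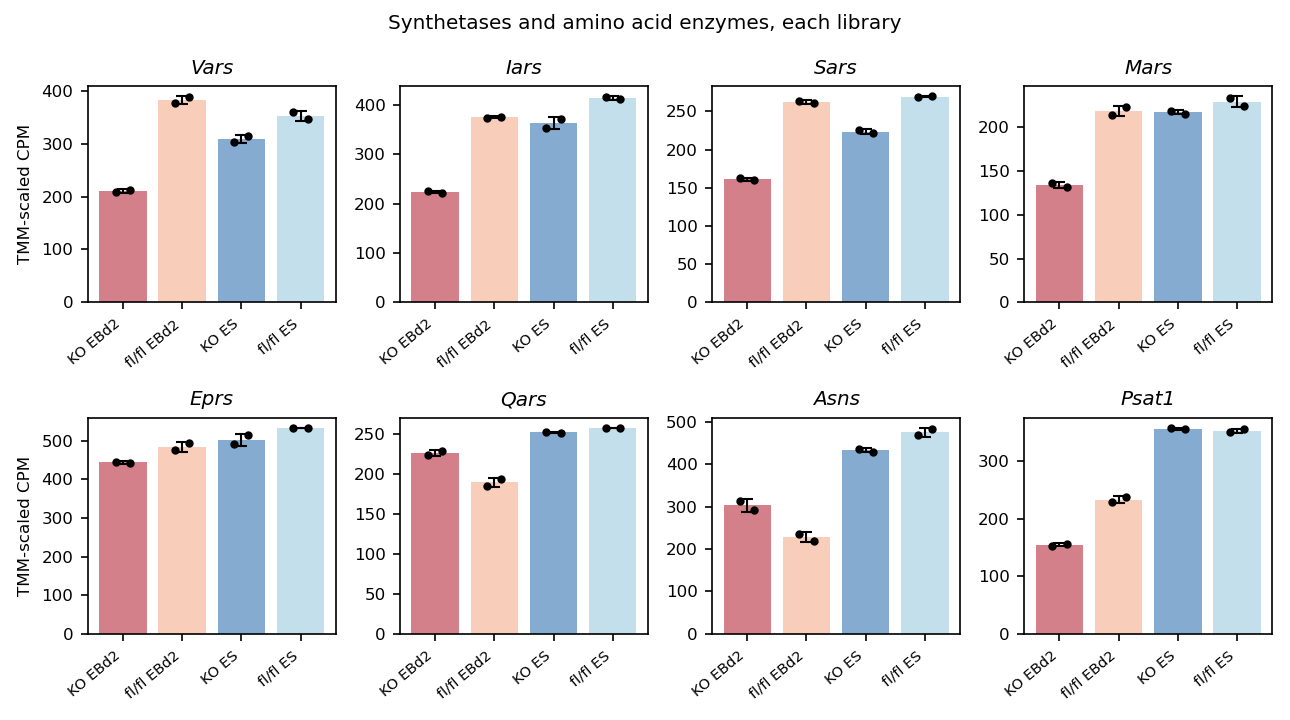
TMM-scaled CPM of 6 synthetases, Asns and Psat1 in KO EBd2, fl/fl EBd2, KO ES and fl/fl ES cells; bars are means, error bars SDs and points the 2 libraries of a group. Vars, Iars, Sars and Mars are lowest in KO EBd2, at means of 211, 224, 161 and 134 CPM, whereas Asns is lowest in fl/fl EBd2, at a mean of 227 CPM.

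The enzymes of amino acid synthesis were split. Asns (chr6:7675169-7693254, - strand) had 314 and 292 CPM in KO EBd2, against 236 and 219 in fl/fl EBd2. Both KO libraries were higher, and the log2 fold change was 0.41 ± 0.05 (edgeR adjusted p = 1.41e-05). Psat1 and Phgdh, of the serine pathway, fell, Psat1 by 0.59 ± 0.04 and Phgdh by 0.25 ± 0.04; Phgdh was not called with library sizes alone (-0.02, adjusted p = 0.672). Psph, which completes serine synthesis, did not pass the test (-0.22 ± 0.09, edgeR adjusted p = 0.0519), nor did the mitochondrial folate enzymes Shmt2 (-0.07 ± 0.05) and Mthfd2 (-0.05 ± 0.06). Shmt2 and Mthfd2 were called higher, at 0.16 and 0.17, with library sizes alone.

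Of the transporter parts, Slc7a5, the light chain of the large neutral amino acid exchanger, fell by 0.28 ± 0.05 (-0.05 with library sizes alone, adjusted p = 0.418). Its heavy chain Slc3a2 did not pass the test (0.01 ± 0.05). Slc7a11, the cystine carrier, had 8.13 and 8.85 CPM in KO EBd2, against 5.40 and 6.23 in fl/fl EBd2, without overlap, and did not pass the test (0.54 ± 0.23, edgeR adjusted p = 0.0637). It rested on 83 and 99 counts in KO EBd2 and 40 and 54 in fl/fl EBd2, and it passed under 7 of the 17 alternatives.

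Among the 11 members whose promoter window held the element, 6 were called lower in KO EBd2 (Aars, Gars, Iars, Tars, Yars and Chac1), 2 higher (Asns and Atf3) and 3 were not called (Slc7a11, Trib3 and Nupr1). Of all genes tested, 31.5% were called lower in KO EBd2 and 30.7% higher. With library sizes alone, Aars and Chac1 were not called lower. The median log2 fold change of these 11 members was -0.29, against -0.28 over the 20 members with a window but no match, of which 12 were lower and 2 higher. Genes with the same 8 letters thus stood at both ends: TTGCATCA lies before the RefSeq start site of Atf3, which rose, and after that of Iars, which fell.

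Other parts of the pathway were read from lists, of which the called genes with the smallest p are named. Their EBd2 counts, here and in the next paragraphs, are read against 31.5% of all genes lower and 30.7% higher. With library sizes alone these shares were 20.2% and 42.8%. Of 22 tested genes among other reported ATF4 targets, 12 were lower and 4 higher in KO EBd2, with a median of -0.26 (9 lower and 4 higher with library sizes alone). Slc38a2, a carrier of small neutral amino acids, stood at 334 CPM in KO EBd2 and 665 in fl/fl EBd2 (-0.99 ± 0.04). The cationic amino acid carrier Slc7a3 stood at 63.7 and 176 CPM in KO and fl/fl EBd2 (-1.46 ± 0.05). Cth, which makes cysteine from cystathionine, went the other way, at 106 CPM in KO EBd2 and 43 in fl/fl EBd2 (1.31 ± 0.05).

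Of the 5 genes for eIF2 kinases and the GCN2 activator, the interferon-induced kinase PKR (Eif2ak2) was higher (0.97 ± 0.09), and Gcn1 (-0.32 ± 0.04) and Eif2ak1 (-0.21 ± 0.06) were lower; with library sizes alone 3 were higher and 0 lower. Of 10 genes for eIF2, its exchange factor eIF2B and the eIF2 phosphatase, 8 were lower and 1 higher, among them Eif2b3 (-0.79 ± 0.07), Eif2b5 (-0.45 ± 0.04) and Ppp1r15b (-0.38 ± 0.04), against 4 lower and 2 higher with library sizes alone. Of 9 folate cycle genes 3 were lower, among them Gldc (-0.64 ± 0.04) and Mthfd1 (-0.51 ± 0.04), and 4 higher, among them Gcsh (0.59 ± 0.04); library sizes alone gave 2 and 5.

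Stress programmes next to this one had calls in both directions, where 31.5% of all genes were called lower and 30.7% higher. The unfolded protein response list had 8 of 16 lower and 5 higher, with the smallest p for Xbp1 (-0.86 ± 0.06), Hyou1 (-0.41 ± 0.04) and Manf (-0.40 ± 0.05), against 3 lower and 9 higher with library sizes alone. Of 8 targets of the oxidative stress factor NRF2, 4 were lower, among them Gclm (-1.23 ± 0.04) and Txnrd1 (-0.73 ± 0.04), and 3 higher, among them Hmox1 (0.83 ± 0.05); library sizes alone gave 3 and 4. Of 10 p53 targets 4 were lower, such as Bax (-0.89 ± 0.05), and 4 higher, such as Cdkn1a (1.18 ± 0.04) and Ccng1 (0.61 ± 0.04); library sizes alone gave 2 and 6. In the SCF list of 5, Skp1a (-0.46 ± 0.04), Rbx1 (-0.84 ± 0.07), Cul1 (-0.41 ± 0.04) and the βTrCP gene Btrc were lower and 0 were higher (3 and 0 with library sizes alone).

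The second comparison set KO against fl/fl in ES cells, where differences were small. In KO ES cells, 18 of 39 members were called lower, against 12.8% of all genes, and 4 were called higher, against 10.9% of all genes. The median log2 fold change of the members was -0.09. With library sizes alone, which moved the median of all genes by 0.07, the calls were 7 lower, against 6.58% of all genes, and 7 higher, against 17%. No member differed by a fold of 2. The 18 lower calls fell to 9, 8, 7 and 9 when KO lot 1, KO lot 12, fl/fl lot 1 and fl/fl lot 2 of the ES cells were left out in turn. Of the 22 calls, 7 held in all 17 alternatives, namely those of Atf3, Mthfd2, Dars, Iars, Sars, Tars and Vars.

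Atf3 had 4.10 and 4.08 CPM in KO ES cells, against 1.75 and 2.54 in fl/fl ES cells, with a log2 fold change of 0.94 ± 0.17 (edgeR adjusted p = 0.00255). Its groups did not overlap, on 92 and 88 counts in KO ES cells and 39 and 52 in fl/fl ES cells. Chac1 had 16.7 and 17.3 CPM in KO ES cells, against 13.5 and 11.6 in fl/fl ES cells (0.44 ± 0.09, edgeR adjusted p = 0.00642). Chac1 was thus called higher in KO ES cells and lower in KO EBd2. Its ES call was lost without fl/fl ES lot 2, and its EBd2 call with library sizes alone. Cebpb had 7.89 and 6.77 CPM in KO ES cells, against 4.72 and 4.74 in fl/fl ES cells (0.63 ± 0.14, edgeR adjusted p = 0.00666). Its call was lost without KO ES lot 1 (adjusted p = 0.0608) or fl/fl ES lot 1 (0.051), and 20.7% of its exon bases are shared with Tmem189 on the other strand.

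Ddit3 had 17.2 and 17.75 CPM in KO ES cells, against 21.7 and 25.8 in fl/fl ES cells (-0.44 ± 0.09, edgeR adjusted p = 0.00501). It was lower in both KO libraries, and its call was lost once fl/fl ES lot 2 was left out. Up to 10.9% of its exon bases are shared with a further Ddit3 model, Gm4189 and Mars, as overlaps were summed by gene. Sesn2 had 78.4 and 85.7 CPM in KO ES cells, against 104 and 103 in fl/fl ES cells (-0.34 ± 0.04, edgeR adjusted p = 0.000339). Its call was lost, at 0.0935, only when libraries were thinned to the smallest total.

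Atf4 had 239 and 229 CPM in KO ES cells, against 255 and 262 in fl/fl ES cells. The groups did not overlap, but the call (-0.14 ± 0.04, edgeR adjusted p = 0.023) was lost without any 1 of KO lot 1, KO lot 12, fl/fl lot 1 and fl/fl lot 2, at 0.0536, 0.17, 0.0727 and 0.191. Asns had 436 and 429 CPM in KO ES cells, against 468 and 483 in fl/fl ES cells, and its call (-0.14 ± 0.04, edgeR adjusted p = 0.0332) was lost in the same way, at 0.117, 0.163, 0.0845 and 0.234. In contrast to EBd2, both Asns values in KO lay below fl/fl. Trib3, with 30.7 and 30.1 CPM in KO ES cells and 29.5 and 29.95 in fl/fl ES cells, did not pass the test (0.03 ± 0.07, edgeR adjusted p = 0.773).

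Slc7a11 had 1.61 and 2.27 CPM in KO ES cells, against 1.39 and 0.782 in fl/fl ES cells, and did not pass the test (0.81 ± 0.29, edgeR adjusted p = 0.0647). Its counts were 36 and 49 in KO ES cells and 31 and 16 in fl/fl ES cells. Atf5 had 9.99 and 10.15 CPM in KO ES cells, against 10.2 and 10.1 in fl/fl ES cells (-0.02 ± 0.11, edgeR adjusted p = 0.939), so its libraries overlapped between genotypes here and not in EBd2.

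Of the 20 synthetases in ES cells, 11 were lower and 0 were higher by edgeR, where 12.8% and 10.9% of all genes were. Their median was -0.10. With library sizes alone 5 were lower and Wars was called higher, where 6.58% and 17% of all genes were. Wars, for tryptophan, and Qars, for glutamine, stood at 0.05 ± 0.04 and -0.03 ± 0.03 in ES cells by TMM and did not pass the test. The largest falls were those of Sars (-0.27 ± 0.03, edgeR adjusted p = 0.000146) and Tars (-0.24 ± 0.04, edgeR adjusted p = 0.00107). Vars had 304 and 315 CPM in KO ES cells, against 360 and 347 in fl/fl ES cells (-0.19 ± 0.03, edgeR adjusted p = 0.00238). Iars had 354 and 372 CPM in KO ES cells, against 416.5 and 412 in fl/fl ES cells (-0.19 ± 0.03, edgeR adjusted p = 0.00218). Neither gene's groups overlapped.

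The mitochondrial folate enzymes parted in ES cells: Mthfd2 rose by 0.27 ± 0.04 in KO and Shmt2 fell by 0.18 ± 0.04, a call lost without KO lot 12 or fl/fl lot 1 (0.0504 and 0.057). Slc7a5 and Slc3a2, the paired transporter chains, fell by 0.18 ± 0.04 each; the Slc7a5 call was lost without KO lot 1 or fl/fl lot 1 (0.118 and 0.122), and that of Slc3a2 without KO lot 1, KO lot 12 or fl/fl lot 1 (0.0548, 0.0516 and 0.0871). Other reported ATF4 targets had 8 of 22 tested genes higher and 4 lower in KO ES cells, with a median of 0.02 (8 and 2 with library sizes alone); Cth (0.48 ± 0.03) and Pck2 (0.53 ± 0.04), the mitochondrial enzyme that makes phosphoenolpyruvate, were higher, and Ddit4 (-0.63 ± 0.07), an inhibitor of mTORC1, was lower. Of the eIF2 and eIF2B list 4 of 10 were lower, among them Ppp1r15b (-0.24 ± 0.03), and 0 were higher (2 lower and 1 higher with library sizes alone). Of all genes in ES cells, 12.8% were lower and 10.9% higher, or 6.58% and 17% with library sizes alone.

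Of the other lists in ES cells, 2 of 5 genes of the eIF2 kinase list were lower, namely Eif2ak1 (-0.15 ± 0.05) and the PERK gene Eif2ak3 (-0.20 ± 0.06), and with library sizes alone 0 were called. The unfolded protein response list had 2 of 16 lower, Calr (-0.22 ± 0.03) and Hsp90b1 (-0.13 ± 0.03), and 1 higher, Sdf2l1 (0.29 ± 0.08), against 1 lower and 4 higher with library sizes alone. Mitochondrial synthetases had 2 of 17 lower and 2 higher. The lists of this paragraph are short and are read against the 12.8% of all genes called lower and 10.9% called higher in ES cells. With library sizes alone these shares were 6.58% and 17%. Among folate cycle genes 4 of 9 were higher, among them Gcsh (0.31 ± 0.03), and 3 lower, among them Amt (-0.23 ± 0.04). NRF2 targets had 3 of 8 lower and 1 higher, Nqo1 (0.43 ± 0.07), and p53 targets 3 of 10 lower, among them Eda2r (-0.34 ± 0.04), and 1 higher, Cdkn1a (0.15 ± 0.04). Of the SCF list, Skp1a (-0.22 ± 0.03) and Rbx1 (-0.26 ± 0.05) were lower. With library sizes alone, lower and higher calls in ES cells numbered 1 and 2 for mitochondrial synthetases, 1 and 4 for the folate cycle, 1 and 2 for NRF2 targets, 2 and 2 for p53 targets and 2 and 1 for the SCF list.

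The third comparison tested whether the genotype difference was itself different in EBd2 and in ES cells, as the log2 fold change of KO over fl/fl in EBd2 minus that in ES cells. It was negative for 22 of 39 members, against 25.7% of all genes, and positive for 5, against 22.4% of all genes; with library sizes alone the calls were 14, against 18.1% of all genes, and 7, against 30.3%. Atf3 had the largest interaction of the members, 2.13 ± 0.25 (edgeR adjusted p = 3.36e-05), followed by Atf5 at 1.5 ± 0.17 (2.82e-05) and Atf4 at -1.17 ± 0.07 (1.4e-07). Chac1 (-0.93 ± 0.18, edgeR adjusted p = 0.00134) and Asns (0.55 ± 0.06, edgeR adjusted p = 2.68e-05) changed sign between the stages. Of the synthetases, 16 had a more negative difference in EBd2, from -0.67 for Vars to -0.17 for Cars, and Qars a more positive one (0.29 ± 0.05). Eprs, Rars and Hars did not pass this test, nor did Ddit3, Trib3, Sesn2, Nupr1, Cebpb, Slc7a11, Slc7a5, Psph and Shmt2. The interaction sets KO EBd2 and fl/fl ES cells (lots 1 and 2) against fl/fl EBd2 and KO ES cells (lots 1 and 12). A difference between lots 2 and 12 would therefore enter it.

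The change from ES cells to EBd2 was then compared within each genotype; these contrasts use the same libraries as those above, so they are set side by side and not as independent results. In KO, 30 of 39 members were lower in EBd2 than in ES cells, against 33.1% of all genes, and 4 were higher (Atf3, Atf5, Slc7a11 and Sesn2), against 31.7% of all genes. In fl/fl, 22 were lower, against 30.1% of all genes, and 11 were higher, against 28.9% of all genes. The members' medians were -0.47 in KO and -0.14 in fl/fl. With library sizes alone, which moved the median of all genes by 0.15 in KO and by -0.01 in fl/fl, 24 were lower and 8 higher in KO, against 24.8% and 40.3% of all genes, and 22 lower and 11 higher in fl/fl, against 30.7% and 28.4%. Feeder markers summed to 192 to 208 CPM in KO EBd2 and 723 to 783 in KO ES cells, and to 53.8 to 57.3 in fl/fl EBd2 and 613 to 648 in fl/fl ES cells; their part in the stage differences was not tested.

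**Figure D4:**
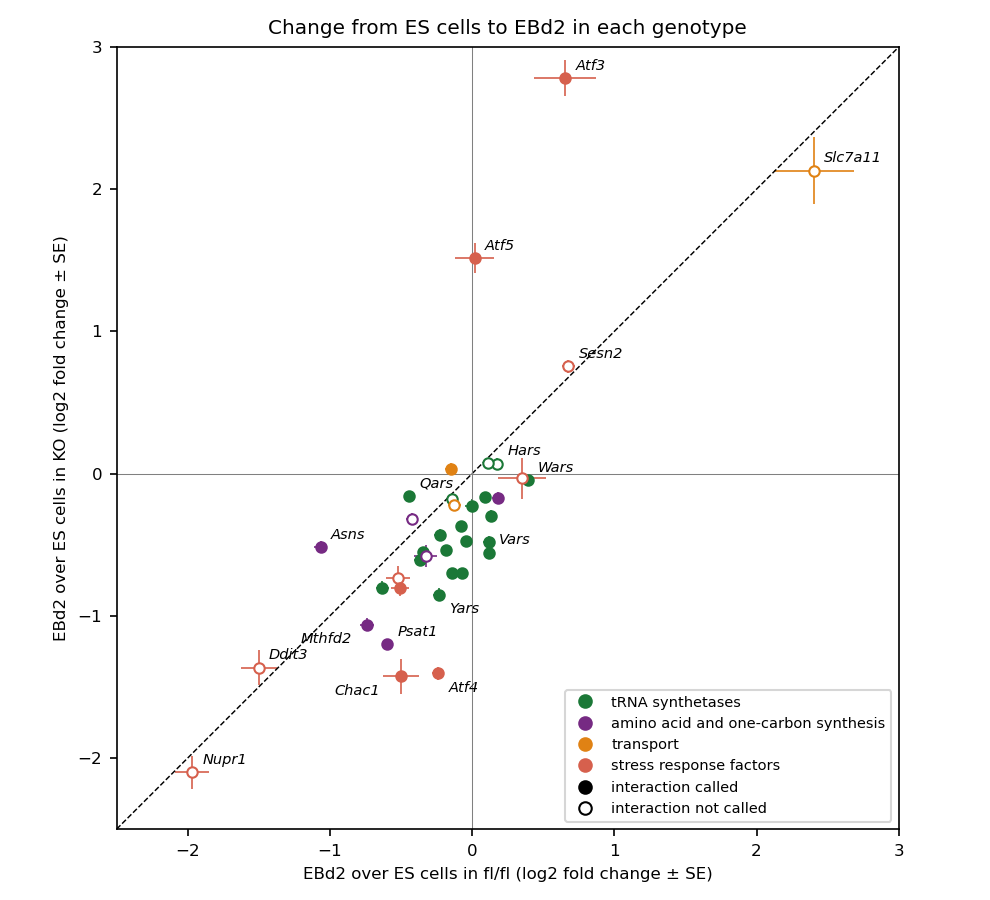
Log2 fold change of EBd2 over ES cells in KO (vertical) against fl/fl (horizontal), with standard errors, for the 39 members; filled points passed the interaction test and the dashed line marks equal change. Atf3 (2.78 in KO, 0.65 in fl/fl) and Atf5 (1.52 and 0.02) lie above the line, and Atf4 (-1.41 and -0.24), Chac1 (-1.43 and -0.50) and most synthetases below it.

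Several members moved alike in both genotypes. Nupr1 fell by 2.10 ± 0.11 on the log2 scale in KO EBd2 relative to KO ES cells and by 1.97 ± 0.12 in fl/fl, with EBd2 means of 6.44 CPM in KO and 7.5 in fl/fl against ES means of 27.7 and 29.1. Ddit3 fell by 1.36 ± 0.13 in KO and by 1.5 ± 0.13 in fl/fl. Slc7a11 rose by 2.13 ± 0.24 in KO and by 2.40 ± 0.28 in fl/fl, and Sesn2 by 0.75 ± 0.05 and 0.68 ± 0.05. These 4 genes did not pass the interaction test, which does not show that they changed equally.

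Psat1 fell by 1.2 ± 0.03 in KO EBd2 and by 0.60 ± 0.03 in fl/fl EBd2, Mthfd2 by 1.06 ± 0.05 and 0.74 ± 0.05, and Asns by 0.52 ± 0.04 and 1.07 ± 0.05, relative to ES cells of the same genotype. All 3 differed between the genotypes by the interaction test. Atf4 fell by 1.41 ± 0.05 in KO and by 0.24 ± 0.04 in fl/fl. Its order of levels was KO EBd2, fl/fl EBd2, KO ES and fl/fl ES cells from low to high, with means of 88.5 ± 5.05, 219 ± 8.82, 234 ± 6.99 and 259 ± 5.15 CPM (SD, n = 2 each), and the 225.5 CPM of fl/fl EBd2 lot 1 lay within 4 CPM of the lower KO ES library.

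Atf3 rose by 2.78 ± 0.13 in KO EBd2 relative to KO ES cells. In fl/fl it rose by 0.65 ± 0.22 (edgeR adjusted p = 0.0244), a call lost without fl/fl ES lot 1 (0.40, adjusted p = 0.226), fl/fl EBd2 lot 1 (0.0676) or fl/fl EBd2 lot 12 (0.147). Atf5 rose by 1.52 ± 0.11 in KO, whereas in fl/fl it stood at 0.02 ± 0.14 and did not pass the test. Its 3 other groups had means of 10.1 to 10.2 CPM, which do not differ beyond their spread, against 28.8 in KO EBd2.

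Of the synthetases, 17 were lower and 0 higher in KO EBd2 than in KO ES cells by edgeR, with a median of -0.45. Of all genes, 33.1% were lower and 31.7% higher in that comparison. Hars, Rars and Wars were not called, and all 3 were called higher with library sizes alone. In fl/fl, 9 were lower and 7 higher, where 30.1% and 28.9% of all genes were, with a median of -0.07. Cars (-0.63 ± 0.05) and Qars (-0.44 ± 0.03) fell most in fl/fl EBd2, and Wars rose most (0.39 ± 0.04). Of the 7 synthetases called higher in fl/fl EBd2, the calls of Hars and Wars held when any 1 library was left out; those of Farsb, Kars, Rars, Tars and Vars, all under 0.14, were each lost without fl/fl EBd2 lot 12, at adjusted p of 0.0771, 0.19, 0.222, 0.139 and 0.128, and some also without another library. The count of members called higher in fl/fl fell to 4 without that library and to 6 without fl/fl ES lot 1.

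**Figure D5:**
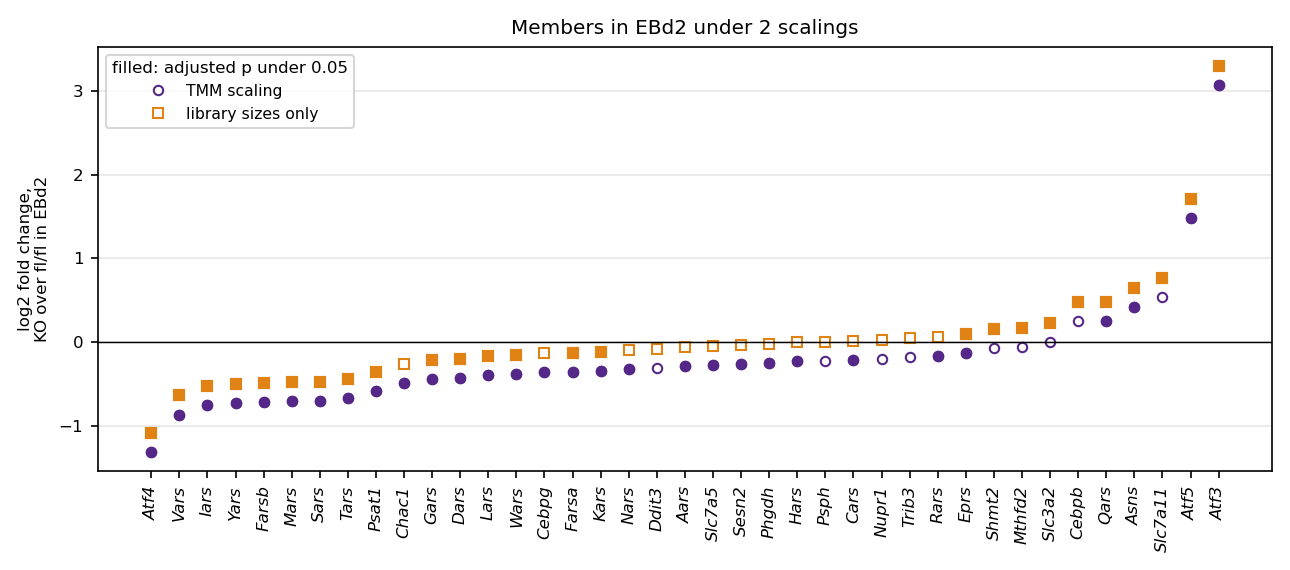
Log2 fold change of KO over fl/fl in EBd2 for the 39 members, with TMM scaling (circles) and with library sizes alone (squares); filled symbols have an adjusted p under 0.05. The squares lie about 0.23 above the circles, so that Atf4 and the 13 synthetases lowest under TMM are called lower under both, and 15 members are called lower in all with library sizes alone.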

How the data were processed

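Polyadenylated RNA of 8 mouse libraries was analysed from the count table that the authors deposited, which holds raw read counts per gene, not normalized, from the values. Per the submitters' processing notes, reads were trimmed with Trim Galore 0.6.7 and the builds named are GRCm38 and mm10; no aligner, counter or strand setting is named in the sources used here. Genes were filtered with filterByExpr over the 4 groups, scaled by TMM and fitted with edgeR 4.0.16 (R 4.3.3) by quasi-likelihood as 4 group means over all 8 libraries, with Benjamini-Hochberg adjustment over the 16542 genes tested and a threshold of 0.05. The residual degrees of freedom were 4 and the common biological coefficient of variation was 3.4%. Totals of 7858452 to 23343471 counts set the precision; replicate libraries differed beyond counting noise, so none was taken as a duplicate. Intervals and SDs rest on 2 libraries a group.

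The 39 members and all further gene lists were chosen with earlier results of these data known. All members may be named; library values were given for 8 core genes, the 5 largest called changes of each genotype contrast and the largest interaction, and up to 3 called genes with the smallest p for each further list. Lot numbers were not treated as pairs. The 17 alternatives (16 for the interaction) included RLE scaling, library sizes alone, other filters, DESeq2 1.42.0, lot blocks, thinning to 7858452 counts and leaving out each library. Promoters came from RefSeq. Not every matching promoter stretch is reported here.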

Additional observations from a re-analysis of the deposited data

Results flagged for a closer look

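For 27 members the genotype difference was not the same in EBd2 and in ES cells by the test of the interaction (edgeR, adjusted p under 0.05), where 48% of all 16542 genes tested passed. Values are the log2 fold change of KO over fl/fl in EBd2 minus that in ES cells. Among stress factors they were 2.13 for Atf3, 1.5 for Atf5, -1.17 for Atf4, -0.93 for Chac1 and -0.30 for Cebpg. Among the synthetases with a more negative difference, Vars stood at -0.67, Mars at -0.63, Yars at -0.62, Farsb at -0.60, Iars at -0.56, Wars at -0.43, Sars at -0.43, Tars at -0.43, Gars at -0.35, Lars at -0.29, Kars at -0.26, Nars at -0.24, Farsa at -0.22, Aars at -0.21, Dars at -0.20 and Cars at -0.17. Qars, at 0.29, was the synthetase with a more positive one. Of the enzymes and transporters, Asns stood at 0.55, Psat1 at -0.60, Phgdh at -0.36, Mthfd2 at -0.32 and Slc3a2 at 0.18.

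Of these 27 calls, 17 held in all 16 alternatives run for it. The rest are not all named here. Members with a negative call numbered 22 in the main fit (25.7% of all genes) and 14 with library sizes alone (18.1%). They numbered 17 when libraries were thinned, 18 with the replicate block by lot and 19 with DESeq2. The calls of Cars, Farsa, Slc3a2 and Cebpg were each lost on leaving out 1 library: that of Farsa without fl/fl ES lot 2 (adjusted p = 0.0502), that of Cebpg without fl/fl ES lot 2 (0.0506), KO EBd2 lot 1 (0.0612) or fl/fl EBd2 lot 12 (0.0701), that of Cars without any 1 of KO ES lot 1 (0.139), fl/fl ES lot 2 (0.159), KO EBd2 lot 1 (0.0953), KO EBd2 lot 2 (0.0958) and fl/fl EBd2 lot 1 (0.153), and that of Slc3a2 without any 1 of KO ES lot 1 (0.0586), KO ES lot 12 (0.0643), fl/fl ES lot 1 (0.104), KO EBd2 lot 1 (0.0821), KO EBd2 lot 2 (0.0514) and fl/fl EBd2 lot 12 (0.141).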

How the results depend on the processing

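With library sizes alone, the members called lower and higher in KO were 15 and 10 in EBd2 (20.2% and 42.8% of all genes) and 7 and 7 in ES cells (6.58% and 17%), members called higher in EBd2 relative to ES cells were 8 in KO, and 14 had a negative interaction (18.1% of all genes). Under that scaling, among members called under either scaling, the sign in KO relative to fl/fl EBd2 turned for Cars (0.00859), Eprs (0.10), Hars (0.00369), Rars (0.0603), Shmt2 (0.16) and Mthfd2 (0.17), and that of Wars turned in KO EBd2 relative to KO ES cells (0.10); by construction it leaves in the shift of all genes. Thinned to the smallest total, 2 members were higher and 6 lower in KO ES cells, and Hars turned to 0.10 there; fewer counts are part of that setting. The members called higher in fl/fl EBd2 relative to ES cells were 7 without a filter on low counts and 7 with DESeq2; the cause was not tested. Leaving out 1 library gave 7 to 16 members lower in KO ES cells and 4 to 11 higher in fl/fl EBd2 relative to fl/fl ES cells. Lots did not pair the libraries: the groups compared within a stage share lot 1 only, and deviations of groups with the same lots correlated at 0.129 and 0.0055. With the replicate block by lot, 10 members were lower in KO ES cells and 6 higher in fl/fl EBd2 relative to ES cells. In KO relative to fl/fl EBd2, 25 were then lower and 5 higher. With the same block, 18 members had a negative interaction and 4 a positive one. The EBd2 libraries hold fewer counts, which limits Atf3, Slc7a11, Chac1, Ddit3, Cebpb and Nupr1 most.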
